A study of Drosophila melanogaster with 8 samples.

Results

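The Cpr and Tweedle (Twdl) genes encode 2 families of structural proteins of the insect cuticle. The 96 genes described here are those among the 13970 genes of the deposited table whose FlyBase symbol starts with Cpr and a digit (70 genes) or with Twdl (26 genes), chosen by symbol alone. Cpr, which encodes a different protein, and the Lcp genes were left out. The annotation lists 95 of the 96 as protein-coding and TwdlU as a pseudogene.

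RNA bound by J2, an antibody that recognises double-stranded RNA whatever its sequence, was sequenced from the cytosolic and the mitochondrial fraction of whole Drosophila melanogaster larvae. Control larvae (w;;, genotype given as ";;" in the labels) were compared with dmpnpaseKO larvae (;;dmpnpase-/dmpnpase-), in which a CRISPR-induced frame shift disrupts CG11337, the gene of the mitochondrial exoribonuclease PNPase. All larvae were 4 days old and of the wDah background, and 2 libraries were made per genotype and fraction, which gives 8 libraries in 4 groups. The labels do not say whether replicates came from separate groups of larvae, so the p-values below measure only the spread between these libraries, which may be technical. No label gives the larval stage reached at this age, so genotype and stage cannot be told apart.

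The larval epidermis secretes the cuticle, a layered coat of chitin fibres and proteins, and makes it anew at each moult. Most Cpr proteins carry the Rebers-Riddiford domain, which binds chitin, and each gene is named after its band on the polytene chromosomes. Tweedle proteins are found only in insects and were named after TwdlD, in which a dominant mutation makes larvae and pupae short and squat. Because different cuticle genes are transcribed at different moults and in different parts of an instar, their mRNAs are commonly read as markers of stage. They are mRNAs of epidermal cells, so in a mitochondrial fraction prepared from whole larvae they are not mitochondrial transcripts. In RNA from whole larvae, fewer cells of a type and less RNA per cell cannot be told apart.

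Values are TPM, a relative abundance that takes transcript length into account. They have the same sum in every library and do not give the number of reads behind them, so the depth is unknown and a gene at 0 is only listed at 0. The strands are not separated, so that RNA of either strand of a gene is counted together. Between 42.7% and 96.6% of the TPM of a library fell on rRNA pseudogenes, and nuclear-encoded genes other than these took 0.0446% to 0.159% in the cytosol. Their part in the mitochondrial fraction was 0.132% and 0.0755% for the control libraries against 1.18% and 0.586% for the dmpnpaseKO libraries. The replicate 2 library of the dmpnpaseKO cytosol stood apart, with 61 genes above 0 against 984 to 11051 in the other 7. The disrupted gene itself reached no more than 0.0415 TPM in any library, and this is not enough to check the genotype by its level.

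More Cpr and Twdl genes were above 0 in the mitochondrial than in the cytosolic libraries of each genotype. In replicates 1 and 2 of control mitochondria, 52 and 23 of the 96 genes were above 0 TPM, compared with 71 and 51 in dmpnpaseKO mitochondria. The genotypes overlapped, since the second dmpnpaseKO library listed fewer of them than the first control. In the cytosol, 8 and 4 genes were above 0 in the control and 9 and 0 in the dmpnpaseKO. All 96 were at 0 in dmpnpaseKO cytosol replicate 2, the library with few genes of any kind. Few genes were above 0 in the cytosol in general, with 7.04% and 15.0% of all genes in the control and 33.9% and 0.437% in the dmpnpaseKO, against 8.33% and 4.17%, and 9.38% and 0%, of the Cpr and Twdl genes.

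The share of these genes above 0 was lower than that of all genes in each mitochondrial library. They were above 0 in 54.2% and 24.0% of cases in control mitochondria, against 62.7% and 34.7% of all genes. In dmpnpaseKO mitochondria, 74.0% and 53.1% of them were above 0, against 79.1% and 55% of all genes. With a level of 0.1 TPM the genotypes no longer overlapped, with 22 and 18 genes in control mitochondria, compared with 48 and 43 in dmpnpaseKO mitochondria. The same change was seen over all genes, of which 11.4% and 9.21% reached 0.1 TPM in control mitochondria, compared with 51.5% and 37.4% in dmpnpaseKO mitochondria.

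**Figure D1:**
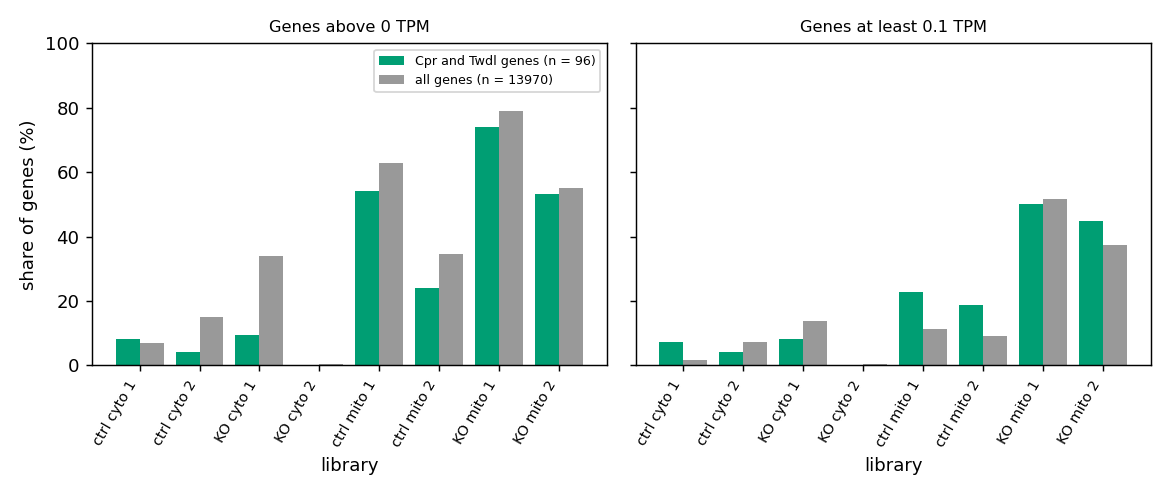
Share of genes above 0 TPM (left) and at 0.1 TPM or more (right) in each library, for the 96 Cpr and Twdl genes (green bars) and for all 13970 genes (grey bars); libraries are given on the x axis as genotype, fraction and replicate. At 0.1 TPM, 50% and 44.8% of the Cpr and Twdl genes were reached in dmpnpaseKO mitochondria and 22.9% and 18.8% in control mitochondria.

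In the 4 mitochondrial libraries, 76 of the 96 genes were above 0 at least once and 20 were above 0 in every library. The other 20, which are 19 Cpr genes and TwdlZ, were at 0 in all 8 libraries. The median exonic length was 963 bp for the 76 and 931 bp for the 20 genes. The families differed in this count, with 51 of 70 Cpr genes and 25 of 26 Twdl genes above 0 in the mitochondrial fraction. The difference was not tested, since neighbouring genes of a family are not independent of each other.

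Most levels were low. Only 2 genes, Cpr47Eg and Cpr47Ec, reached 1 TPM in both control mitochondria libraries, while 11 did so in both dmpnpaseKO mitochondria libraries. Cpr65Ax2 had the highest mean over the 8 libraries. It is one of 7 Cpr65A genes between positions 6131242 and 6161589 of chromosome 3L, and its near-namesake Cpr65Ax1 was listed at 0 in all libraries, so that reads shared by the pair may have been assigned to one of them. The sequences of the pair were not compared here.

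**Figure D2:**
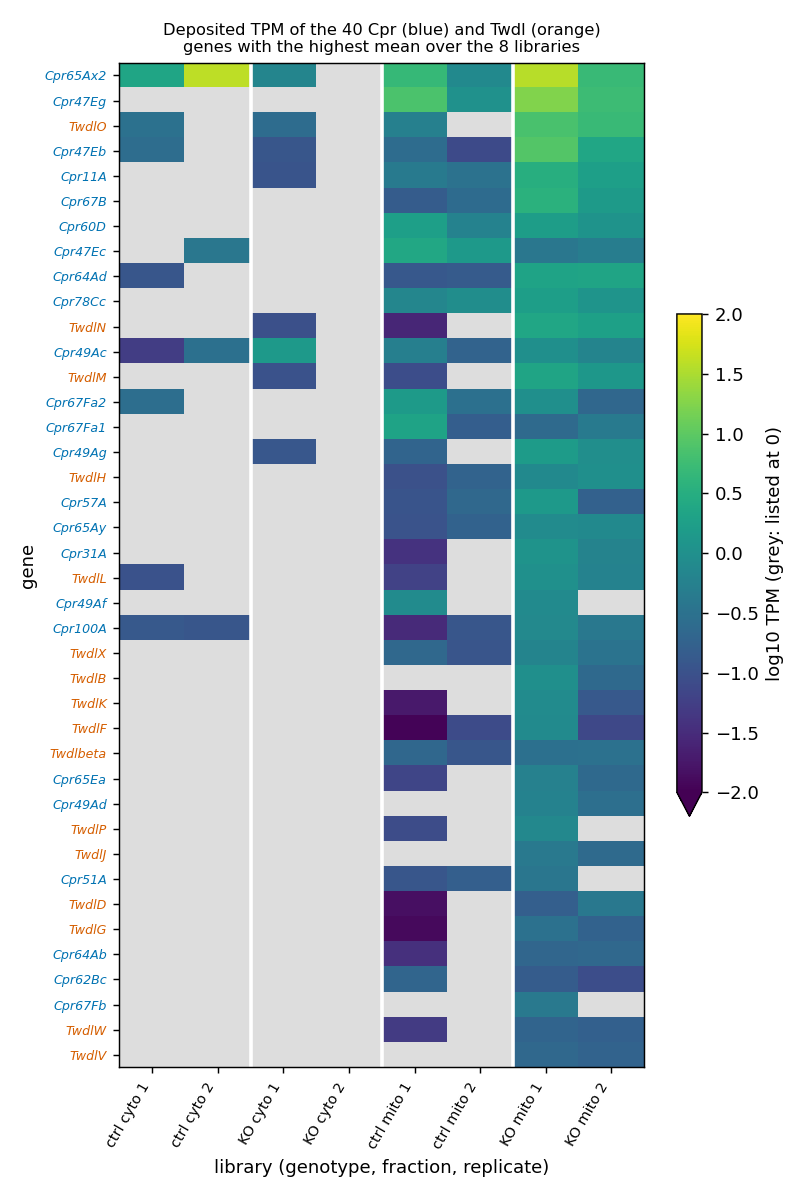
Deposited TPM on a log10 colour scale for the 40 Cpr (blue symbols) and Twdl (orange symbols) genes with the highest mean over the 8 libraries; each row is a gene, each column a library, and grey cells are listed at 0. Both dmpnpaseKO mitochondria columns are filled from top to bottom apart from a few cells, the second control mitochondria column is grey for many Twdl genes, and dmpnpaseKO cytosol replicate 2 is grey throughout.

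The summed level of the 96 genes was 26.4 and 7.50 TPM in control mitochondria, compared with 108.9 and 40.1 TPM in dmpnpaseKO mitochondria. Both dmpnpaseKO libraries lay above both controls, and the ratio of the group means was 4.39. Over the same libraries, the summed TPM of all nuclear-encoded genes had a higher ratio, 8.53. The part of nuclear-encoded TPM held by these genes was therefore smaller in the dmpnpaseKO, at 0.920% and 0.685% against 2.00% and 0.993%. With 2 libraries against 2, an exact permutation test cannot give a p below 0.333, so these sums are given without a test.

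The 2 families stood in opposite order on this share. Cpr genes took 1.89% and 0.917% of nuclear-encoded TPM in control mitochondria, compared with 0.751% and 0.471% in dmpnpaseKO mitochondria. Twdl genes took 0.115% and 0.0757% in control mitochondria, compared with 0.169% and 0.213% in dmpnpaseKO mitochondria. In neither family did the genotypes overlap. In TPM, the ratio of dmpnpaseKO to control mitochondria was 3.66 for the summed Cpr genes and 15.5 for the summed Twdl genes, with the 8.53 of all nuclear-encoded genes between them.

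Cpr65Ax2 and Cpr47Eg together made up 49.3% and 26.6% of the Cpr sum in control mitochondria and 61.9% and 38.5% in the dmpnpaseKO, so that the genotypes overlapped. Without Cpr65Ax2 and Cpr47Eg, the Cpr and Twdl genes held 1.07% and 0.749% of nuclear-encoded TPM in control mitochondria, compared with 0.455% and 0.503% in dmpnpaseKO mitochondria, so the lower share of the dmpnpaseKO remained. In control cytosol replicate 2, Cpr65Ax2 alone made up most of the summed 41.3 TPM of the 96 genes. This sum was above that of either control mitochondria library. The library thus had the highest share of all, 4.87% of its nuclear-encoded TPM, and it came from 4 genes above 0.

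**Figure D3:**
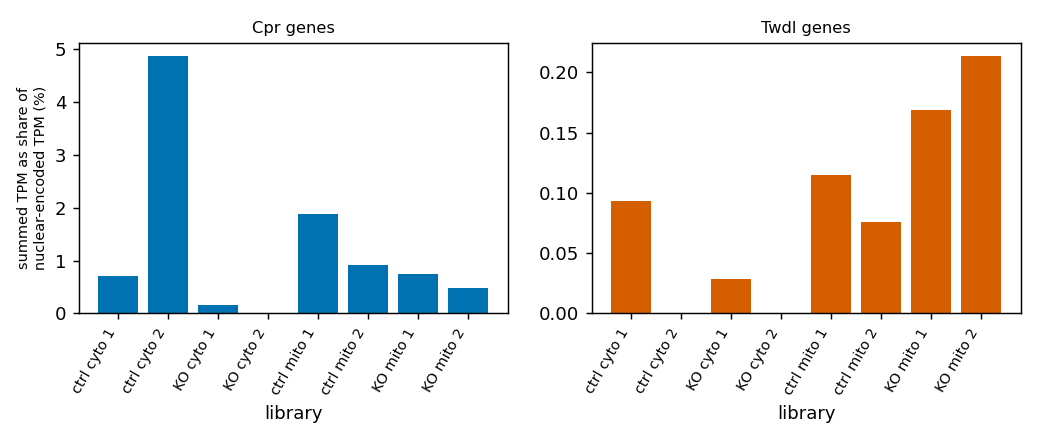
Summed TPM of the Cpr genes (left) and the Twdl genes (right) as a percentage of the nuclear-encoded TPM of each library; each bar is 1 library and the y axes of the panels differ. In mitochondria the Cpr share was lower in both dmpnpaseKO libraries (0.751% and 0.471%) than in both controls, whereas the Twdl share was higher (0.169% and 0.213%).

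Group differences were tested with limma on log2(TPM + 1), after the libraries had been scaled on 8 rRNA pseudogenes as in the methods of the study, for the 475 genes whose mean reached 1 TPM. On this scale, which understates the change of low genes, the median change of all tested genes in dmpnpaseKO mitochondria was 2.23. Of the 475 genes 374 were called higher, which is 78.7%, and 12 lower, which is 2.53%. Changes of single genes are therefore also given relative to the median. Of the 96 Cpr and Twdl genes 4 passed the filter, and 2 of these, TwdlO and Cpr47Eb, rose in dmpnpaseKO mitochondria, while none fell. Both of these passed the filter only through the dmpnpaseKO mitochondria libraries, so that a difference was built into their selection, and 2 of 4 is not above the share of all genes. The median change of the 4 was 2.29. The 2 calls were lost when the libraries were scaled to the same sum of nuclear-encoded TPM or by median-of-ratios.

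TwdlO (FBgn0039438) lies on chromosome 3R from 26625932 to 26626738 on the minus strand, as a single exon of 807 bp. It was at 0.552 and 0 TPM in control mitochondria and at 7.20 and 5.18 TPM in dmpnpaseKO mitochondria. Both dmpnpaseKO libraries were far above both controls, and the log2 change of 2.53 (SE 0.450, n = 2 per group) lay 0.30 above the median of all genes. Because TwdlO passed the filter only through the dmpnpaseKO mitochondria libraries, its change is given without a p-value. In the cytosol it was at 0.312 and 0 TPM in the control and at 0.256 and 0 TPM in the dmpnpaseKO.

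Cpr47Eb (FBgn0033598, chromosome 2R from 11255167 to 11255983, plus strand, 1 exon) was at 0.258 and 0.0783 TPM in control mitochondria. In dmpnpaseKO mitochondria it was at 8.61 and 2.31 TPM, again above both controls. The change was 2.26 (SE 0.449), which is 0.02 from the median of all genes on the log2 scale. It is given without a p-value, since Cpr47Eb too passed the filter only through the dmpnpaseKO mitochondria libraries. The ratio of the mean TPM values was 32.4, the largest among the genes above 0 in both controls.

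The 2 genes with the highest levels did not pass the threshold. Cpr65Ax2 (FBgn0042118, 3L from 6150058 to 6150857, minus strand) was at 4.84 and 0.794 TPM in control mitochondria and at 37.5 and 5.20 TPM in dmpnpaseKO mitochondria. The groups did not overlap, but the lower dmpnpaseKO library was close to the higher control, and the change of 2.32 had a standard error of 1.36 (limma adjusted p = 0.126). Cpr47Eg (FBgn0086519, 2R from 11277957 to 11278445, minus strand) was at 7.46 and 1.05 TPM in the controls and at 17.6 and 5.43 TPM in the dmpnpaseKO, so that the groups overlapped. Its change was 1.46 (SE 0.708, limma adjusted p = 0.0686).

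Most genes were below the filter, and the whole family is described by the order of the libraries. Of the 76 genes above 0 in mitochondria, 43 were higher in both dmpnpaseKO libraries than in both controls, 2 were lower and 31 overlapped. Over all 11571 genes above 0 in mitochondria, 62.4% were higher in both dmpnpaseKO libraries and 1.45% were lower. The count of 43, or 56.6%, was thus near that of all genes. Of the Twdl genes 18 of 25 were higher and none lower, and of the Cpr genes 25 of 51 were higher and 2 lower. A total of 12 genes, 7 Cpr and 5 Twdl, were above 0 in both dmpnpaseKO libraries and at 0 in both controls, and none showed the opposite. Over all genes above 0 in mitochondria, 6.06% were in the first class and 0.648% in the second.

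**Figure D4:**
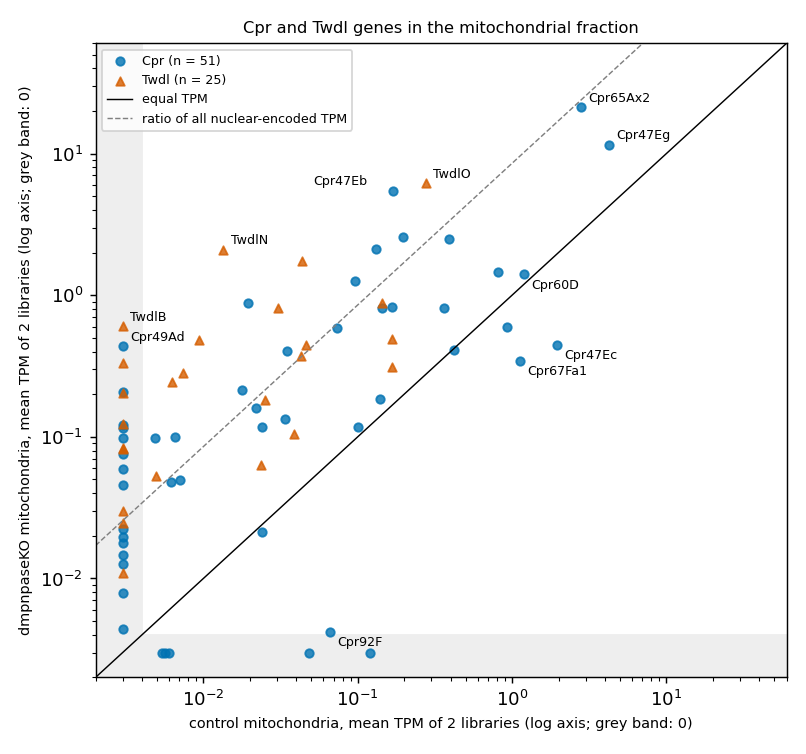
Mean TPM in control mitochondria (x axis) against dmpnpaseKO mitochondria (y axis), both on log axes, for the 51 Cpr genes (circles) and 25 Twdl genes (triangles) above 0 there; points in the grey bands are at 0 in that group, the solid line marks equal TPM and the dashed line the 8.53-fold ratio of all nuclear-encoded TPM. Most genes lie above the solid line, TwdlO, TwdlN and Cpr47Eb also lie above the dashed line, and Cpr47Ec, Cpr67Fa1 and Cpr92F lie below the solid line.

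When the order was taken on the share of nuclear-encoded TPM, 22 of the 76 genes were higher in both dmpnpaseKO libraries and 12 lower. This takes out the change of the nuclear-encoded sum. After scaling to that sum, the median log2 change of the nuclear-encoded genes tested in mitochondria was still 0.44. Over all nuclear-encoded genes above 0, 24.9% were higher and 11.8% lower on this scale. By family, 12 of 25 Twdl genes were higher and 3 lower, against 10 and 9 of 51 Cpr genes. The 3 lower Twdl genes were TwdlX, Twdlalpha and Twdlbeta, chosen after their values were seen. None of them belongs to the Twdl genes that lie close together on chromosome 3R.

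Genes between 0.1 and 1 TPM were tested in a fit with a pseudocount of 0.1 and a minimum mean of 0.1 TPM. In this fit of low values, 3276 genes were tested, of which 75.2% rose and 0.672% fell in dmpnpaseKO mitochondria, with a median log2 change of 2.12. Of the 31 Cpr and Twdl genes tested, 19 rose and none fell, with a median of 1.95. The rises were 10 of 20 Cpr genes and 9 of 11 Twdl genes. The median was 1.91 for the Cpr and 2.07 for the Twdl genes, both below that of all genes. This order depended on the scaling. With the libraries scaled to nuclear-encoded TPM, the Twdl median (0.94) was above that of all genes (0.24) and the Cpr median (−0.40) below it. How a gene had passed the filter was closely tied to its call. Of the 19 genes that reached 0.1 TPM only through the dmpnpaseKO mitochondria libraries 16 were called, against 3 of the 12 that would have passed without them, which are TwdlO, Cpr47Eb and Cpr11A. The other genes called in this fit, TwdlN, TwdlM, Cpr64Ad and Cpr67B among them, were therefore selected by the group in which they are high. Their changes are given below as a description, without a p-value.

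TwdlO (4.70), TwdlN (4.27), Cpr47Eb (4.23) and TwdlM (3.74) had the highest log2 changes in this fit. TwdlN (FBgn0039441, 3R from 26631869 to 26632956, plus strand) was at 0.0269 and 0 TPM in control mitochondria and at 2.29 and 1.89 TPM in dmpnpaseKO mitochondria. Replicates lay close together in the dmpnpaseKO, and the standard error of its change was 0.588. TwdlM, which was chosen after its values were seen, was at 0.0877 and 0 TPM in the controls and at 2.19 and 1.29 TPM in the dmpnpaseKO.

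Among the Cpr genes, Cpr64Ad (FBgn0035513, 3L from 4215379 to 4216414, plus strand) was at 0.125 and 0.138 TPM in control mitochondria. It was at 2.11 and 2.14 TPM in dmpnpaseKO mitochondria, so that replicates differed little in either genotype. Its change in the fit of low values was 3.29 (SE 0.694) and the ratio of the mean TPM was 16.2. Cpr67B (FBgn0035985, 3L from 9404797 to 9406174, plus strand) was at 0.144 and 0.252 TPM in the controls and at 3.64 and 1.52 TPM in the dmpnpaseKO, with a change of 3.09 (SE 0.682). Cpr11A (FBgn0030394, X from 12486970 to 12489448, plus strand) was at 0.453 and 0.328 TPM in the controls and at 3.18 and 1.81 TPM in the dmpnpaseKO. Its change of 2.42 (SE 0.781, limma adjusted p = 0.0167) was near the median of all genes, and its share of nuclear-encoded TPM was lower in both dmpnpaseKO libraries.

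A few Cpr genes were near their control level or below it in TPM. Cpr60D (FBgn0050163, 2R from 24662682 to 24663406, minus strand) was at 1.78 and 0.602 TPM in control mitochondria and at 1.69 and 1.12 TPM in dmpnpaseKO mitochondria, with both dmpnpaseKO values between the controls. Its change in the fit of low values was 0.44 (SE 0.775, limma adjusted p = 0.597). Cpr78Cc (FBgn0037069, 3L from 21300580 to 21301171, plus strand) was at 0.694 and 0.926 TPM in the controls and at 1.73 and 1.19 TPM in the dmpnpaseKO. Both dmpnpaseKO values were above both controls, but the change of 0.83 (SE 0.733, limma adjusted p = 0.300) did not pass the threshold. As a share of nuclear-encoded TPM, both genes were lower in both dmpnpaseKO libraries, like 11.8% of all nuclear-encoded genes. Cpr60D held 0.135% and 0.0797% in the controls against 0.0143% and 0.0192% in the dmpnpaseKO. Cpr78Cc held 0.0526% and 0.123% against 0.0146% and 0.0203%.

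Cpr47Ec had the lowest change. This gene (FBgn0033600, 2R from 11259106 to 11259976, minus strand) was at 2.52 and 1.39 TPM in control mitochondria and at 0.391 and 0.502 TPM in dmpnpaseKO mitochondria. Both dmpnpaseKO libraries were below both controls, with a ratio of the mean TPM of 0.228. In the fit of low values its change was −1.78 (SE 1.04, limma adjusted p = 0.129), which did not pass the threshold. It was called lower when only the 4 mitochondrial libraries were fitted, or when the pseudocount was left at 1 with the lower filter. Its share of nuclear-encoded TPM was 0.191% and 0.184% in the controls and 0.00330% and 0.00857% in the dmpnpaseKO. In the cytosol it was at 0.390 TPM in control replicate 2 and at 0 in the other 3 libraries.

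The only other gene with both dmpnpaseKO libraries below both controls was Cpr92F (FBgn0038819, 3R from 20669571 to 20672821, plus strand). It was at 0.100 and 0.0319 TPM in control mitochondria and at 0.00838 and 0 TPM in dmpnpaseKO mitochondria, under the minimum of both fits. Cpr67Fa1 and Cpr67Fa2, chosen after their values were seen, lie side by side on chromosome 3L with similar names, and reads may have been split between them. Cpr67Fa1 was at 2.11 and 0.155 TPM in the controls and at 0.239 and 0.452 TPM in the dmpnpaseKO. Cpr67Fa2 was at 1.54 and 0.304 TPM in the controls and at 0.980 and 0.217 TPM in the dmpnpaseKO. Both overlapped between genotypes in TPM, and both were high in the first control library, so the mean of 2 hides a wide spread. As a share of nuclear-encoded TPM, both were lower in both dmpnpaseKO libraries, like 11.8% of all nuclear-encoded genes.

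Many of these genes lie in tandem groups. With a gap of up to 50 kb, 4 groups of 5 or more genes held 34 of the 96 genes, and 26 genes stood alone. The largest group was made of 12 Twdl genes on 3R from 26619118 to 26641054 (TwdlM, TwdlP, TwdlB, TwdlL, TwdlO, TwdlK, TwdlJ, TwdlN, TwdlH, TwdlR, TwdlS and TwdlD). All 12 were above 0 in mitochondria, and 10 of them were higher in both dmpnpaseKO libraries than in both controls, compared with the 62.4% of all genes given above. TwdlP and TwdlS, which were at 0 in dmpnpaseKO replicate 2, overlapped. The summed level of the group was 0.955 and 0.188 TPM in control mitochondria, compared with 16.7 and 11.0 TPM in dmpnpaseKO mitochondria.

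Within this group, the level in dmpnpaseKO mitochondria spanned a wide range. TwdlO, TwdlN and TwdlM were above 1 TPM in both libraries. TwdlH was at 0.791 and 0.968 TPM and TwdlD, the founding member of the family, at 0.161 and 0.402 TPM. TwdlR, at 0.0298 and 0.0767 TPM, was the lowest of the 10. In control mitochondria replicate 2 all of the 12 except TwdlH were at 0.

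Of the 7 Cpr47E genes on 2R from 11251751 to 11278445, 4 were above 0 in mitochondria, and these were Cpr47Eb, Cpr47Eg, Cpr47Ec and Cpr47Ed, of which the last was above 0 in dmpnpaseKO replicate 1 only, at 0.0444 TPM. Cpr47Eb was higher in both dmpnpaseKO libraries, Cpr47Ec was lower in both and the other 2 overlapped. The 8 Cpr49A genes on 2R from 12376626 to 12415170 summed to 1.59 and 0.191 TPM in control mitochondria and to 3.98 and 1.88 TPM in dmpnpaseKO mitochondria, and 3 of the 6 above 0 were higher in both dmpnpaseKO libraries. Of the 7 Cpr65A genes 5 were above 0, and 3 of these, with Cpr65Ax2 among them, were higher in both. Over all genes above 0 in mitochondria, 62.4% were higher in both dmpnpaseKO libraries and 1.45% lower.

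Elsewhere, the 3 Cpr67F genes on 3L were all above 0 and all overlapped, and the 3 Cpr72E genes were at 0 in all mitochondrial libraries. Exons of 7 of the 96 genes overlap those of another gene, and none of these 7 is among the genes tested at a mean of 1 TPM. For such genes, reads of the partner cannot be told apart from their own where the overlap is in the same or, as strands are not separated, in the opposite direction.

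In the cytosol, levels were too sparse for most comparisons. Of the 96 genes 14 were above 0 in at least 1 cytosolic library, and none in dmpnpaseKO replicate 2, so that no gene could be higher in both dmpnpaseKO libraries. Cpr65Ax2 and Cpr100A were lower in both dmpnpaseKO libraries. Over all 5376 genes above 0 in the cytosol, 0.837% were higher in both dmpnpaseKO libraries and 2.12% were lower. Cpr65Ax2 was at 2.26 and 40.5 TPM in the control cytosol and at 0.654 and 0 TPM in the dmpnpaseKO cytosol. The change of −3.62 (SE 1.36, limma adjusted p = 0.292) did not pass the threshold, and it rests on a single control library with a high value and a dmpnpaseKO library in which nearly all genes were at 0.

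No Cpr or Twdl gene was called in the cytosol, where limma called 0 of the 475 genes (0%) after adjustment. At an unadjusted p under 0.05 there were 47 genes, of which Cpr65Ax2 was the only one of the 4 tested here. It was called lower under median-of-ratios scaling, and also without control cytosol replicate 1. Cpr49Ac, chosen after its values were seen, was the highest of these genes in dmpnpaseKO cytosol replicate 1, at 1.42 TPM, against 0.0539 and 0.304 TPM in the control cytosol and 0 in dmpnpaseKO replicate 2.

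The difference of the dmpnpaseKO effect between mitochondria and cytosol was tested as an interaction, which called 148 of 475 genes, or 31.2%. For TwdlO the effect was 2.58 larger in mitochondria (SE 0.637) and for Cpr47Eb it was 2.36 larger (SE 0.635), and both were called. Both genes had passed the filter only through the dmpnpaseKO mitochondria libraries. A difference was thus built into their selection for this test too, and no p-value is given for them. For Cpr65Ax2 the difference was 5.94 (SE 1.92, limma adjusted p = 0.0396), and the larger part of it came from the cytosolic change described above. Cpr47Eg, at 0 in all 4 cytosolic libraries, was not called (1.46, SE 1.00, limma adjusted p = 0.208). These 3 calls were fragile. Without dmpnpaseKO cytosol replicate 2 only TwdlO was called and without control cytosol replicate 1 only Cpr65Ax2. None was called without control cytosol replicate 2, without either control mitochondria library, or under 3 of the other scalings.

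Other genes of cuticle and epidermis were examined as a list of 38 genes found in the table, which covers further structural proteins, chitin synthesis and modification, and tanning enzymes. Of the 35 above 0 in mitochondria, 24 were higher in both dmpnpaseKO libraries and none was lower, again beside 62.4% of all genes. Only 4 passed the filter of 1 TPM, and 2 of these rose, beside 78.7% of all genes tested. The 2 were Idgf6, which encodes a chitinase-like protein (2.26, SE 0.684), and verm, which encodes a chitin deacetylase (1.22, SE 0.406). Both reached 1 TPM only through the dmpnpaseKO mitochondria libraries, so their changes are given without a p-value. The median change of the 4 was 1.08, below that of all genes. Crys, Edg84A and resilin were at 0 in all mitochondrial libraries. In the fit of low values 8 of 17 rose and none fell, against 75.2% and 0.672% of all genes. The median of the 17 was 1.50, below the 2.12 of all genes. Of the 8 that rose, 3 belong to the Ccp84A cuticle proteins, namely Ccp84Ab, Ccp84Ad and Ccp84Ag. These 3 were chosen after their values were seen and passed the filter only through the dmpnpaseKO mitochondria libraries. Of the other genes that rose in this fit, kkv, obst-B, Cht7 and mmy also passed only through the dmpnpaseKO mitochondria libraries, whereas Gasp did not. The summed share of the list was 1.02% and 0.844% of nuclear-encoded TPM in control mitochondria, compared with 0.384% and 0.397% in dmpnpaseKO mitochondria, and was thus lower in the dmpnpaseKO, as for the Cpr genes.

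The ecdysone and moulting list, 19 genes found, holds the receptor and response genes of the steroid hormone that triggers moults and enzymes that make this hormone. Of its 19 genes 16 were higher in both dmpnpaseKO libraries and none was lower, against 62.4% and 1.45% of all genes. None reached a mean of 1 TPM, and 5 of 6 rose in the fit of low values, in which 75.2% of all genes rose, with a median change of 2.00. All 5 passed the filter only through the dmpnpaseKO mitochondria libraries, and were thus selected by the group in which they are high. Hr4, which would have passed without these libraries, was not called (1.70, SE 0.959, limma adjusted p = 0.117). ImpL2, which encodes a secreted protein that binds insulin-like peptides and had the highest mean of the list, had a change of 2.86 (SE 0.703) in that fit, which it entered only through the dmpnpaseKO mitochondria libraries. The share of the list was 0.0508% and 0.104% of nuclear-encoded TPM in control mitochondria, compared with 0.0594% and 0.0802% in dmpnpaseKO mitochondria, which overlapped.

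The larval cuticle protein (Lcp) genes, a further set of chitin-binding proteins, held a larger part of nuclear-encoded TPM than the Cpr and Twdl genes together in control mitochondria. Their sum was 155.4 and 56.0 TPM in control mitochondria, compared with 89.2 and 32.8 TPM in dmpnpaseKO mitochondria, or 11.8% and 7.41% against 0.753% and 0.560% of nuclear-encoded TPM. Of 9 tested, 3 rose and 6 fell, with a median of −2.79. Over all 475 genes tested, 78.7% rose and 2.53% fell, with a median of 2.23. Thus the sum of the Cpr and Twdl genes was higher in dmpnpaseKO mitochondria in TPM, whereas that of the Lcp genes overlapped between genotypes. Lcp65Ab1, the gene of the set with the highest mean, fell by 3.45 (SE 0.900, limma adjusted p = 0.00323). Lcp65Ag3 (4.01) and Lcp3 (−4.03, limma adjusted p = 0.00104) lay at the ends of this range. The change of Lcp65Ag3 was 6.40 in the fit of low values and 0 in the cytosol. It thus reached 1 TPM only through the dmpnpaseKO mitochondria libraries, and its change is given without a p-value. Lcp9, 1 of the 6 that fell, had a change of −2.23, of −5.24 in the fit of low values and of 0 in the cytosol. It reached 1 TPM only through the control mitochondria libraries, the group in which it is high.

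Markers of other tissues were measured in the same libraries. The larval serum protein genes Lsp1alpha, Lsp1beta, Lsp1gamma and Lsp2, which the fat body expresses late in larval life, were the 4 of 5 tested fat body genes that fell, and are named here after their values were seen. The fifth, apolpp, which encodes the lipoprotein precursor apolipophorin and had the highest mean of the list, had a change of 2.84 (SE 1.52, limma adjusted p = 0.0971). Of the 8 fat body genes found, 6 were lower and 2, apolpp and Obp99a, higher in both dmpnpaseKO mitochondria libraries. In the fit of low values, which it too entered only through the dmpnpaseKO mitochondria libraries, Obp99a had a change of 1.94 (SE 0.479). The share of the fat body list was 3.76% and 3.92% of nuclear-encoded TPM in control mitochondria, compared with 0.294% and 0.453% in dmpnpaseKO mitochondria. The 6 salivary gland glue genes (Sgs), expressed at the end of the last larval instar, summed to 1.68 and 3.64 TPM in control mitochondria and to 0.0118 and 0 TPM in dmpnpaseKO mitochondria. Of these, 4 were lower in both dmpnpaseKO libraries, and Sgs3 and Sgs7 fell in the fit of low values. The change of Sgs3 and Sgs7 in the cytosol was 0. Both thus passed the filter only through the control mitochondria libraries, the group in which they are high. All 12 muscle genes were higher in both dmpnpaseKO libraries and 6 of 8 tested rose, with a change of 2.72 (SE 1.43, limma adjusted p = 0.0906) for the highest, the actin gene Act57B. Of the muscle genes that rose, all but Mhc reached 1 TPM only through the dmpnpaseKO mitochondria libraries. Of the 16 gut genes 13 were higher and 10 of 12 tested rose, among them the protease gene Jon65Aiv (2.50, SE 1.08, limma adjusted p = 0.0443), which had the highest mean. Among the gut genes that rose, Mal-A1, alphaTry, LysD, epsilonTry, Jon25Bii and Jon65Aiii reached 1 TPM only through the dmpnpaseKO mitochondria libraries. Of the hemocyte, tracheal and neuronal genes 4 of 5, 2 of 3 and 3 of 4 were higher. These counts stand beside 62.4% of all genes higher in both libraries and 1.45% lower. Of the genes tested, 78.7% were called higher and 2.53% lower, and in the fit of low values 75.2% and 0.672%. The part of these tissues and of larval stage in the changes of the Cpr and Twdl genes was not tested.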

How the data were processed

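The libraries were made from RNA recovered with the J2 antibody from 8 samples, with genotype, fraction and replicate number taken from the labels. The authors quantified the reads with salmon 0.11.3 against BDGP6 transcripts and deposited TPM, which are not scaled on the rRNA pseudogenes; the step from transcripts to genes is not given in the sources used here. There were 0 value columns without a library. Depth is unknown, so no counting intervals are given.

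Libraries were brought to a common mean of the 8 rRNA pseudogenes listed in the methods. Genes with a mean TPM of at least 1 were fitted on log2(scaled TPM + 1) in limma 3.58.1 (R 4.3.3; lmFit, eBayes with trend) with 4 group means and Benjamini-Hochberg adjustment over all genes tested, at a threshold of 0.05. The fit of low values used a pseudocount of 0.1 and a mean of at least 0.1 TPM. The fit was also run on simulated data in which only a minority of genes was changed. Most genes rose in these libraries, so that run does not show how the fit behaves here. Symbols were matched for 13746 of 13970 genes. Positions and exons are from Ensembl release 115 of the same assembly, and exonic length is the union of exons. Sums and shares are of deposited TPM. Nuclear-encoded means neither mitochondrial nor rRNA. Figures were drawn with matplotlib 3.10.9.

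The genes named are those with a mean of at least 1 TPM, the 10 with the highest mean over mitochondrial libraries, and the 5 largest rises and falls with both dmpnpaseKO libraries on 1 side of both controls (only 2 falls exist); from the other lists, the highest gene and those past the threshold, up to 3. The members and lists were chosen with earlier results of these data known. Alternatives were other scalings, pseudocounts and filters, eBayes without trend, single fractions, a replicate block and the omission of each library in turn; those on the fit of low values were added after seeing the data.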

Additional observations from a re-analysis of the deposited data

Results flagged for a closer look

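The effect of dmpnpaseKO differed between fractions, by the interaction test of limma, for 3 of the 4 genes tested, beside 31.2% of all genes tested. The change in mitochondria minus that in the cytosol was 2.36 for Cpr47Eb and 2.58 for TwdlO, both of which were near 0 in the cytosol in each genotype. It was 5.94 for Cpr65Ax2, which stood at 40.5 TPM in control cytosol replicate 2. The limma adjusted p of Cpr65Ax2 was 0.0396. Cpr47Eb and TwdlO had passed the filter only through the dmpnpaseKO mitochondria libraries. A difference was thus built into their selection, and no p-value is given for them. No call remained with unscaled TPM, median-of-ratios or nuclear-encoded scaling, without the trend, without control cytosol replicate 2, without control mitochondria replicate 1 or without control mitochondria replicate 2.

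For Cpr100A (FBgn0039805, chromosome 3R from 30867521 to 30869184, plus strand) the libraries were in opposite order in the fractions. It was at 0.0299 and 0.118 TPM in control mitochondria and at 0.763 and 0.402 TPM in dmpnpaseKO mitochondria, whereas in the cytosol it was at 0.133 and 0.116 TPM in the control and at 0 in both dmpnpaseKO libraries. The log2 change was 0.76 larger in mitochondria on the log2(TPM + 1) scale, and this difference was not tested in the main fit, whose filter Cpr100A did not pass. The difference was called with a mean of at least 0.1 TPM at either pseudocount, and without a filter. With pseudocounts of 1 and 0.1, 1807 and 567 of 3276 genes were called upwards. Cpr100A reached 0.1 TPM only through the dmpnpaseKO mitochondria libraries, and dmpnpaseKO cytosol replicate 2 had only 61 genes above 0.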

How the results depend on the processing

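The number of Cpr and Twdl genes rising in mitochondria, 2, was 0 under median-of-ratios scaling, 0 with scaling to nuclear-encoded TPM and 0 with a mean of at least 5 TPM. It was 19 with a mean of at least 0.1 TPM at either pseudocount and 34 without a filter, and 2 to 3 with a library left out. The number falling, 0, was 1 with a mean of at least 0.1 TPM and 2 without a filter. The cytosolic count, 0, was 1 under median-of-ratios scaling and 0 to 1 with a library left out. The count for the difference between fractions, 3, was 0 with unscaled TPM, median-of-ratios or nuclear-encoded scaling, a pseudocount of 0.1, a mean of at least 5 TPM, or without the trend. It was 16 with a mean of at least 0.1 TPM, 11 with a pseudocount of 0.1 as well, 22 without a filter, and 0 to 3 with a library left out; a fit to 1 fraction gives no such difference. The median change of the genes tested, 2.29, was 0.73 under median-of-ratios scaling, 0.34 under nuclear-encoded scaling, 3.53 and 0.62 with pseudocounts of 0.1 and 10, 0.53 with a mean of at least 0.1 TPM, 0.14 without a filter, and 1.40 to 2.73 with a library left out. Nuclear-encoded scaling lowered the median of all genes from 2.23 to 0.39. The 19 rises in the fit of low values became 1 under nuclear-encoded and 3 under median-of-ratios scaling, and 12 to 20 with a mitochondrial library left out (12 without control replicate 2 and 12 without dmpnpaseKO replicate 1). The causes were not tested.

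Genes at 1 TPM or more numbered 6 and 2 for control and 15 and 11 for dmpnpaseKO mitochondria, and in the cytosol 1 and 1 for control against 1 and 0 for dmpnpaseKO; 22 reached 0.1 TPM in control mitochondria replicate 1. The sign reversed for Cpr65Ax2 (−0.19) under nuclear-encoded scaling and for Cpr47Eg under median-of-ratios (−0.41) and nuclear-encoded scaling (−1.09). Of 161 alternative values of the 12 named genes, 120 kept direction and call or moved by less than the replicate spread.

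Replicate numbers were shared, but the labels do not say what they pair. With the replicate number as a block, 2 genes rose and 0 fell in mitochondria, 0 were called in the cytosol and 3 for the difference. Deviations of same-numbered libraries correlated at 0.680 in mitochondria and −0.0126 in the cytosol. TPM carry no depth, so no limit can be given for genes at 0.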

Other observations

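Tb, a gene for which FlyBase gives TwdlA as a synonym, has a symbol outside the rule used here and was not counted among the Twdl genes. It was at 0.0126 and 0 TPM in control mitochondria and at 0.429 and 0.176 TPM in dmpnpaseKO mitochondria, and at 0 in all 4 cytosolic libraries. Both dmpnpaseKO libraries were above both controls.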
